A study of Mus musculus with 135 samples.

Results

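The hippocampus of AA mice exposed to repeated social defeat (RSD) while taking minocycline was compared with that of untreated AA mice. AA mice are Townes mice whose own globin genes were replaced by human ones coding for normal adult hemoglobin, and all mice of the study were male. Hippocampus libraries labelled AA came from 8 mice with neither RSD nor drug (AA) and 15 mice with both (AA + RSD + minocycline). These are 23 of the 135 libraries of the study. Only mice whose title number is at least 5600 and below 6000, or at least 9700 and below 10000, were used. A further library, labelled AA + RSD + minocycline, was dropped because its counts are identical to those of a library labelled as an SS mouse given minocycline (SS mice carry the human sickle globin genes). RSD places an aggressive male intruder with caged resident males on consecutive nights, and minocycline was given in the drinking water from the day before the first defeat to the last. The paper states that behavioral tests followed in exposed and control mice, among them fear conditioning with foot shocks. Mice were killed in the days after testing ended, so the tissue was not taken during defeat or drug treatment. RSD and the drug came together in every treated mouse, so what each contributed cannot be told apart in this comparison. The labels used here give neither the age of the mice nor the cage they shared, and each library is counted as 1 mouse.

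The hippocampus holds dense glucocorticoid and mineralocorticoid receptors, and it is a brain region in which stress hormones act on memory and mood. Glucocorticoids released under stress bind a receptor that enters the nucleus and switches on genes such as Fkbp5, which restrains the receptor, and Tsc22d3, an anti-inflammatory leucine-zipper protein. The same hormones carry time of day to tissues, where the clock genes cycle in a feedback loop of activators (Clock, Arntl) and repressors (Per and Cry genes, Nr1d1, Nr1d2). Minocycline is a tetracycline antibiotic that enters the brain and is used to dampen activated microglia. As a tetracycline it also binds bacterial ribosomes, the relatives of the mitochondrial ribosome.

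Libraries held between 19323399 and 62882249 reads on genes. The 10 hippocampus marker genes summed to between 840 and 1311 CPM (counts per 1000000 reads, scaled by TMM factors) in these libraries and to between 231 and 428 CPM in the cortex of the same mice, so the tissue label fits in every library. The labels' column numbers place the libraries in 2 blocks of the count table, called table part 1 (columns 9 to 28, 6 AA and 9 treated mice) and table part 2 (columns 39 to 50, 2 AA and 6 treated mice). What these blocks stand for is not given in the sources used here. The erythroid gene Alas2 stood at log2 CPM of 5.82 in AA mouse 5844 and 5.48 in treated mouse 5853, against 1.07 to 3.64 in the other 21 libraries. On a scale without TMM factors they stood at 5.79 and 5.53, the other 21 at 1.10 to 3.57, and the 17 SS hippocampus libraries of the same number ranges at 5.30 to 6.81, so for this gene both lie in the range of libraries labelled SS. AA mice 9838 and 5845 stood apart in a different way. Of all their reads, 41.9% and 26.2% did not map, against 4.99% to 17.02% in the other 21 libraries. Pseudogenes took 0.816% and 0.618% of their reads on genes, against 0.176% to 0.226% elsewhere. The plot of the libraries shows both shares side by side.

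**Figure D1:**
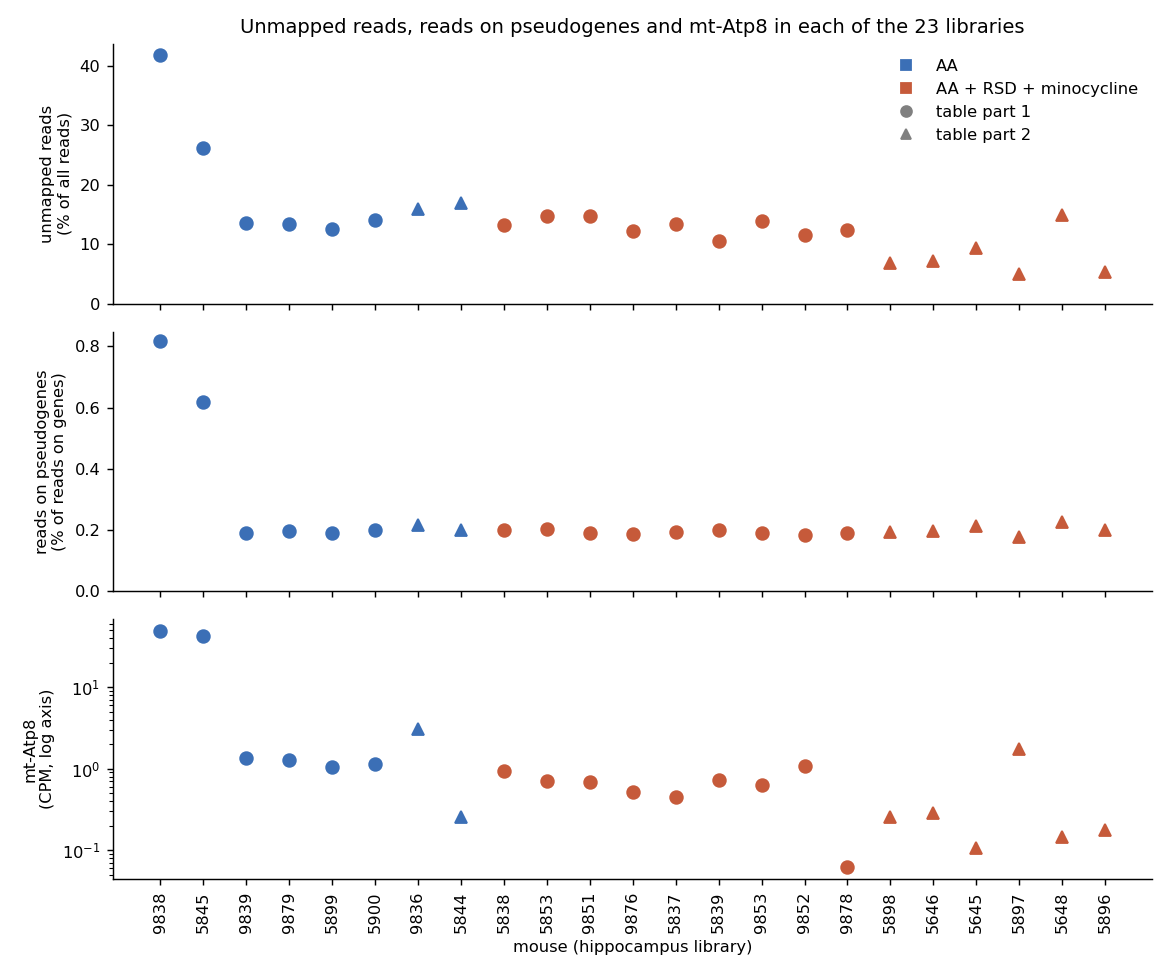
Unmapped reads (% of all reads), reads on annotated pseudogenes (% of reads on genes) and mt-Atp8 (CPM, log axis) in each of the 23 hippocampus libraries, 1 point per mouse, coloured by group and shaped by table part. AA mice 9838 and 5845 are the highest of all 23 libraries in each panel.

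Genes were tested with the quasi-likelihood test of edgeR, and a gene was called at a Benjamini-Hochberg adjusted p under 0.05. In treated mice, 25 of 17843 genes were called lower (0.140% of the genes tested) and 0 were called higher. At an unadjusted p under 0.05, 1442 genes were lower (8.08%) and 1147 were higher (6.43%). Of the 25 called genes, 23 are annotated pseudogenes (92%), while pseudogenes make up 3.85% of the genes tested. The other two called genes are mt-Atp8, which encodes a small subunit of the mitochondrial ATP synthase, and mt-Nd4l, a subunit of complex I of the respiratory chain. Both sit on the mitochondrial genome. In all 25 genes the libraries of AA mice 9838 and 5845 lay above every one of the other 21 libraries, and their mean was 5.01 to 59.9 times that of the other 6 AA mice (median 33.3 times). Without these 2 libraries 0 genes were called by edgeR (1136 at an unadjusted p under 0.05, lowest adjusted p 0.744), a setting added once the values were known. The median log2 fold change of the 25 genes then moved from -3.35 to -0.26. The Wald test of DESeq2 called a largely different set in the same 23 libraries, with 56 genes lower (0.314%) and 10 higher (0.0560%). Of these 66 genes, 2 are among the 25 of edgeR and 29 are pseudogenes. mt-Atp8 and mt-Nd4l received no adjusted p there, and DESeq2 was run neither with the table part as a term nor without mice 9838 and 5845. In what follows a call is one by edgeR unless DESeq2 is named.

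mt-Atp8 is shown in full because it is a called gene whose whole sequence occurs at a second place in the genome. It lies at chrM:7766-7969 on the plus strand (GRCm39), and a stretch of chromosome 1, chr1:24653690-24653893 on the minus strand, holds the same 204 bases.
mt-Atp8 and its copy on chromosome 1: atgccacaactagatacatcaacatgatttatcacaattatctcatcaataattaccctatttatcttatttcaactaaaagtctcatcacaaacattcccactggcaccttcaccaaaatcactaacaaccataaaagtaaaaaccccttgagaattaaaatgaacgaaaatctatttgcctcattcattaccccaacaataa
No base differs between the 2 places, so an 85-base read from one maps equally well to the other, and the deposited tables count reads that map to several places on no gene. The first 180 bases of mt-Co2, a subunit of cytochrome c oxidase (chrM:7013-7192, plus strand), are shown beside those of the called pseudogene Gm13341 (chr2:22477795-22477974, minus strand), which was chosen after its values were seen. Capitals mark the 2 bases at which they differ.
mt-Co2: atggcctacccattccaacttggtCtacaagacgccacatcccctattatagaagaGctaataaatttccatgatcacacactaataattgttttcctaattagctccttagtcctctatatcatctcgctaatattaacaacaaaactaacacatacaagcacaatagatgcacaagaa
Gm13341: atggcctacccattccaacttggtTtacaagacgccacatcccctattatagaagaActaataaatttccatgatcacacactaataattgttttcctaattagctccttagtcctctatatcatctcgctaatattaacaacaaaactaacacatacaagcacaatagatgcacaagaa

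Counted on these genes, the 2 libraries stood far from the rest. mt-Atp8 measured 48.6 CPM in mouse 9838 and 41.9 CPM in mouse 5845, and 0.259 to 3.05 CPM in the other 6 AA mice. In the 15 treated mice it ranged from 0.0618 to 1.74 CPM (median 0.518), and the AA mice above all treated mice were these 2 and mouse 9836 at 3.05 CPM. The fitted difference was -4.43 on the log2 scale (SE 0.74, adjusted p = 0.0282), and without the 2 libraries it was -1.23 (adjusted p = 0.744). mt-Nd4l measured 48.4 and 43.1 CPM in the 2 libraries, 2.12 to 3.87 CPM in the other 6 AA mice and 0.793 to 2.92 CPM in treated mice. Its difference was -2.60 (SE 0.51, adjusted p = 0.0340) and it was -0.23 without them (adjusted p = 0.766). Gm13341 measured 306 and 273 CPM in the 2 libraries and at most 9.66 CPM in any other.

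The mitochondrial genome encodes 13 messenger RNAs, all of them subunits of the respiratory chain or the ATP synthase, and they separate by how much of each also occurs in the nuclear genome. For 6 of them (mt-Co2, mt-Atp8, mt-Atp6, mt-Co3, mt-Nd3 and mt-Nd4l), 98.9% to 100% of all 85-base windows occur unchanged in a nuclear chromosome. The mean of the 2 libraries was 11.6 to 66.2 times the median of the other 21 for these 6. For the other 7, with 0 to 61.2% of such windows, it was 0.766 to 1.08 times. These 7 held most of the mitochondrial reads (mt-Co1 alone stood at a median of 16608 CPM in the 21 libraries), and none of the 7 was called. Of all 13, 6 were lower and 1 was higher at an unadjusted p under 0.05, and those lower are the 6 with 98.9% to 100% of windows in the nuclear genome. mt-Nd3 was called lower by DESeq2 (-2.24, adjusted p = 0.0221) and not by edgeR (adjusted p = 0.0574). The ratios describe the 13 genes of the same libraries and carry no test.

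**Figure D2:**
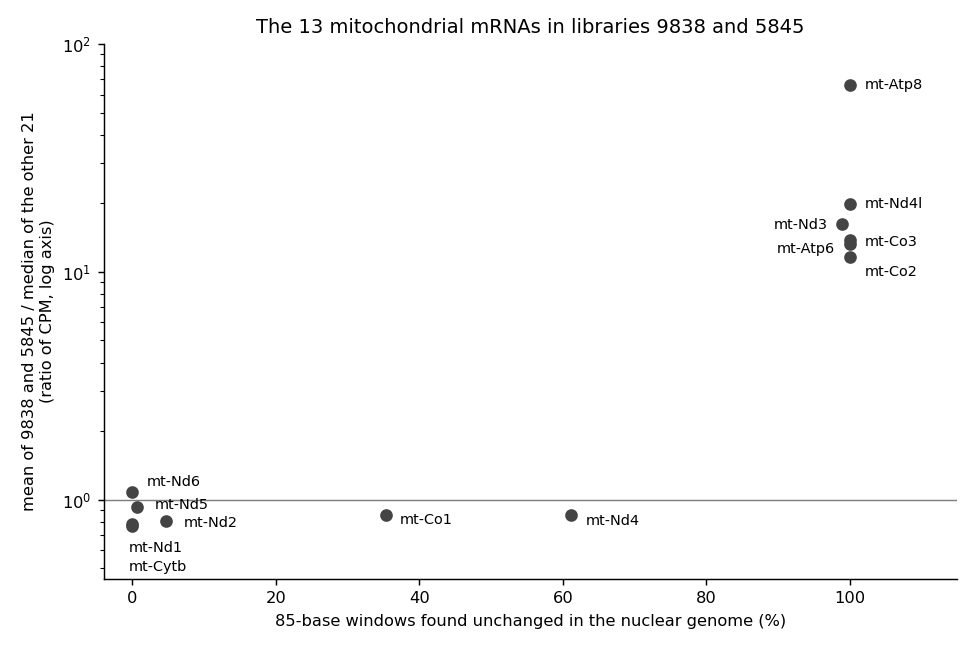
The 13 mitochondrial messenger RNAs: the share of each one's 85-base windows found unchanged in the nuclear genome (x axis, %) and the mean CPM of libraries 9838 and 5845 divided by the median CPM of the other 21 libraries (y axis, log scale, with a line at equality). The 6 genes at 98.9% to 100% lie between 11.6 and 66.2 times, and the 7 others lie between 0.766 and 1.08 times.

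The 23 called pseudogenes are copies as well. Aligned to transcripts of protein-coding genes, their closest gene is identical over 92.4% to 100% of the aligned bases (median 96.8%), and 20 of them share a run of at least 85 unbroken bases with it. The closest gene is mitochondrial for 6 and nuclear for 17. Among the nuclear ones are Eef1a1, the translation elongation factor, Hspa8, the constitutive heat shock protein, Glul, the glutamine synthetase of astrocytes, and Ckb, brain creatine kinase. The 13 distinct nuclear genes differed between the groups by -0.91 to 0.40 on the log2 scale and none was called (lowest adjusted p 0.331). Glul, at 1517 CPM in AA and 1446 CPM in treated mice, differed by -0.07 (SE 0.06), while its copy Glns-ps1 measured 13.6 to 19.3 CPM in the 2 libraries and 0.366 to 1.96 CPM in all others.

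The same mice stood apart in their other tissue. Cortex libraries of 9838 and 5845 had 24.5% and 25.9% unmapped reads and 0.583% and 0.608% of reads on pseudogenes, and mt-Atp8 stood at 39.5 and 44.3 counts per 1000000 reads on genes there, against at most 1.51 in the other 21 cortex libraries. The cortex comparison of the same 23 mice called 43 genes lower (0.238%) and 0 higher, 37 of them pseudogenes. The shared genes numbered 24, which is 24 of the 25 hippocampus calls and 24 of the 43 cortex calls, and both comparisons rest on the same mice. Without the 2 mice 0 cortex genes were called. Among untreated SS mice of the same number ranges, hippocampus libraries 9822 and 9848 had 29.1% and 27.3% unmapped reads and mt-Atp8 at 54.6 and 60.7 on the same scale. Untreated mice thus held every such library in these 3 sets, and how these libraries came to differ was not tested.

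Shares of reads differed between the groups too. Unmapped reads made up 11.04% ± 3.48 (SD, n = 15) in treated mice and 19.32% ± 10.11 (SD, n = 8) in AA mice, a difference of -8.28 percentage points (exact permutation test, two-sided, p = 0.00250, adjusted p = 0.0125 over 5 measures). Without mice 9838 and 5845 the difference was -3.36 points (exact permutation test, adjusted p = 0.113). Within table part 1 the share was 10.6% to 14.8% in treated and 12.5% to 41.9% in AA mice, a difference of means of -7.26 points (exact permutation test, adjusted p = 0.215). Within table part 2 it was 4.99% to 14.9% in the 6 treated mice and 15.98% and 17.02% in the 2 AA mice, -8.39 points (exact permutation test, p = 0.0714, the smallest that 2 against 6 mice allow, adjusted p = 0.357). Reads on several genes differed by 0.116 points (exact permutation test, adjusted p = 0.0138), and by 0.0709 points without the 2 mice (adjusted p = 0.115, exact permutation test). Within table parts 1 and 2 the differences were 0.0840 and 0.141 points (exact permutation test, adjusted p = 0.168 and 0.357). Reads on genes, reads at several places and reads outside genes did not pass the threshold (adjusted p of 0.128 or more by the exact permutation test).

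The larger structure of the data followed the table parts. The first principal component, with 39.9% of the variance, ran from -36.4 to -1.68 in table part 1 and from 24.8 to 68.6 in table part 2, with both groups on each side. With group in the model, 5475 genes (30.7%) were called lower and 5048 (28.3%) higher in table part 2 than in part 1, and 127 were called between the number ranges. The 2 blocks hold unequal shares of the groups, with 2 of 8 AA mice and 6 of 15 treated mice in table part 2. With the table part as a term of the model, 0 genes were called by edgeR (lowest adjusted p 0.0858), while 1909 were lower (10.7%) and 1641 higher (9.20%) at an unadjusted p under 0.05. The median standard error of a log2 fold change fell from 0.122 to 0.0853 with the term. The fit with the term compares mice within a table part, and counts and medians of lists are given for both fits below.

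**Figure D3:**
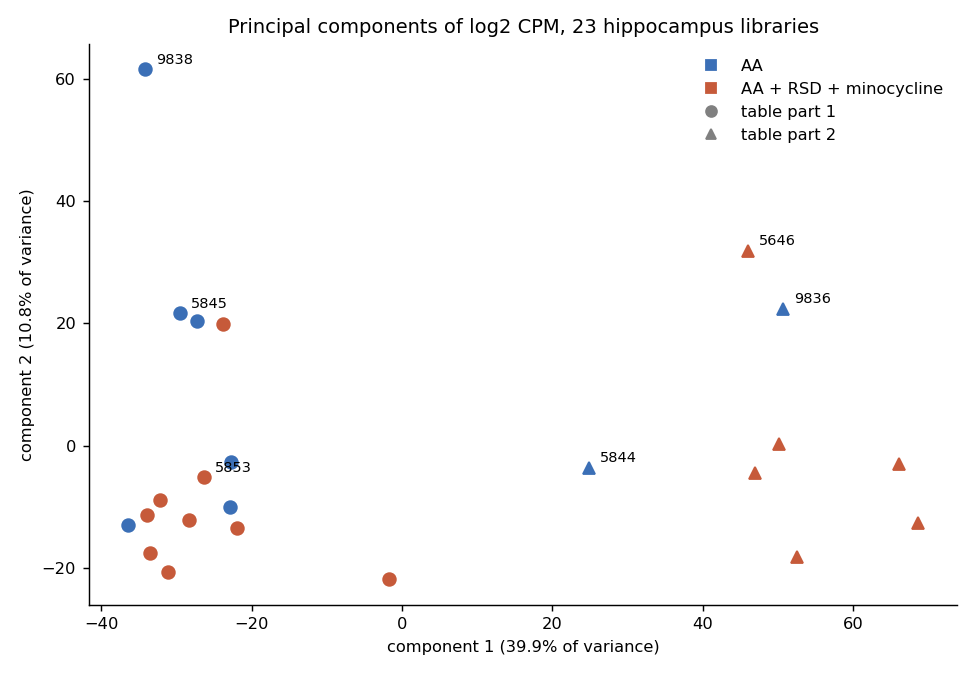
First and second principal components of log2 CPM in the 23 hippocampus libraries (39.9% and 10.8% of the variance), 1 point per mouse, coloured by group and shaped by table part. Table parts lie on either side of the first component, and AA mouse 9838 lies highest on the second.

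Separate mice gave separate estimates of the same comparison. Between table part 1 (6 against 9 mice) and table part 2 (2 against 6 mice), 64.7% of 17204 genes had the same sign. Within table part 1, the 2 number ranges had the same sign in 60.6% of 17525 genes. Pooled over table parts, the number ranges had the same sign in 40.6% of 17466 genes. In the lower range, 1 of 4 AA mice and 6 of 10 treated mice came from table part 2, and in the higher range it was 1 of 4 and 0 of 5. Values by number range below come from fits without a term for the table part, pooled over both parts unless table part 1 is named.

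Glucocorticoid receptors and targets were tested in 21 genes, and none was called. In the fit without a term, 6 were lower and 1 higher at an unadjusted p under 0.05 (median log2 fold change -0.09, against -0.0025 over all genes). With the table part as a term, 8 were lower and 1 higher (median -0.13, against 0.0093 over all genes). Median values were -0.21 within table part 1 and -0.07 within table part 2, and 0.03 and -0.25 in the lower and the higher number range. Plin4, a lipid-droplet coat protein, showed the largest difference of the list. It ranged from 7.66 to 62.3 CPM in AA mice (median 35.3) and from 4.83 to 33.8 CPM in treated mice (median 11.9). All 15 treated mice lay below the AA median, and the groups overlapped. In genes picked for a low p, such counts of mice are no separate evidence, here and below. The share of all genes with such counts is not given. The log2 fold change was -1.36 (SE 0.34, adjusted p = 0.091), and with the term -1.21 (SE 0.25, adjusted p = 0.0858), with -1.20 in table part 1 and -1.27 in table part 2. Plin4 also differed by -1.29 between the table parts. Of the exonic bases of Plin4, 39.1% overlap the opposite-strand gene Hdgfl2.

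Klf15, a hormone-induced regulator of amino acid and lipid use, ranged from 23.4 to 33.7 CPM (median 29.05) in AA mice and from 20.2 to 29.7 CPM (median 24.5) in treated mice, with 14 of 15 below the AA median (log2 fold change -0.20, SE 0.07, adjusted p = 0.231). Cdkn1a, the cell-cycle inhibitor p21, had medians of 7.89 and 5.78 CPM (-0.34, adjusted p = 0.233), and all 15 treated mice lay below the AA median. Hif3a, a hormone-responsive member of the hypoxia factors, differed by -0.63 without and -0.44 with the term (adjusted p = 0.332 and 0.0858). Its level differed between the table parts by -1.50, more than between the groups. Zbtb16, a zinc-finger repressor, differed by -0.52 and -0.45, and Fkbp5 by -0.14 and -0.13. Tsc22d3 and Sult1a1, a sulfotransferase, passed an unadjusted p under 0.05 with the term (-0.23 and -0.31). The member that was higher was Hsd11b1, which regenerates active glucocorticoid inside cells, at 0.43 without and 0.27 with the term. The mineralocorticoid receptor Nr3c2 differed by 0.11 (adjusted p = 0.542), and the targets Sgk1, Pdk4, Klf9, Ddit4, Errfi1, Mt1 and Mt2 had adjusted p of 0.386 or more in both fits.

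Clock genes were tested in 19 members, and none was called by edgeR. DESeq2, in its fit without a term, called Hlf (-0.29, SE 0.07, adjusted p = 0.0299) and Nr1d2 (-0.25, SE 0.06, adjusted p = 0.0357) lower. Without a term, 7 were lower and 0 higher at an unadjusted p under 0.05 (median -0.10), and with the table part as a term 8 were lower and 1 higher (median -0.09). Per3, a repressor of the loop, had the lowest p of all genes with the term. In table part 1 it ranged from 68.4 to 88.9 CPM in AA mice and from 54.1 to 77.3 CPM in treated mice. In table part 2 it stood at 39.96 and 40.65 CPM in the 2 AA mice and at 25.5 to 31.4 CPM in the 6 treated mice. The difference was -0.35 with the term (SE 0.06, adjusted p = 0.0858) and -0.46 without it (adjusted p = 0.341), and Per3 differed by -1.10 between the table parts. By number range the group difference of Per3 was -0.66 in the lower and -0.13 in the higher one. Within table part 1 it was -0.25 in the lower and -0.31 in the higher range.

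Nr1d2, which encodes the repressor REV-ERB beta, had medians of 89.7 CPM in AA and 76.4 CPM in treated mice, with 14 of 15 treated mice below the AA median (-0.26, SE 0.06, adjusted p = 0.0713). Hlf, an output factor of the loop, had medians of 138 and 114.99 CPM, and all 15 treated mice were below the AA median (-0.30, SE 0.07, adjusted p = 0.0655). Between the table parts Nr1d2 and Hlf differed by -0.04 and -0.05. Rora, an activator of Arntl, differed by -0.41 in both fits, Clock by -0.22, Tef by -0.16 without the term, and Per2 by -0.23 with it. Bhlhe40 differed by -0.10 without the term, and Arntl was the only higher member (0.10 with the term). Per1, Nr1d1, Dbp, Cry1, Cry2, Ciart, Npas2, Nfil3, Rorb and Bhlhe41 did not pass an unadjusted p under 0.05 in either fit. The hours at which the tissue was taken are not given in the labels used here, and time of day was not tested.

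**Figure D4:**
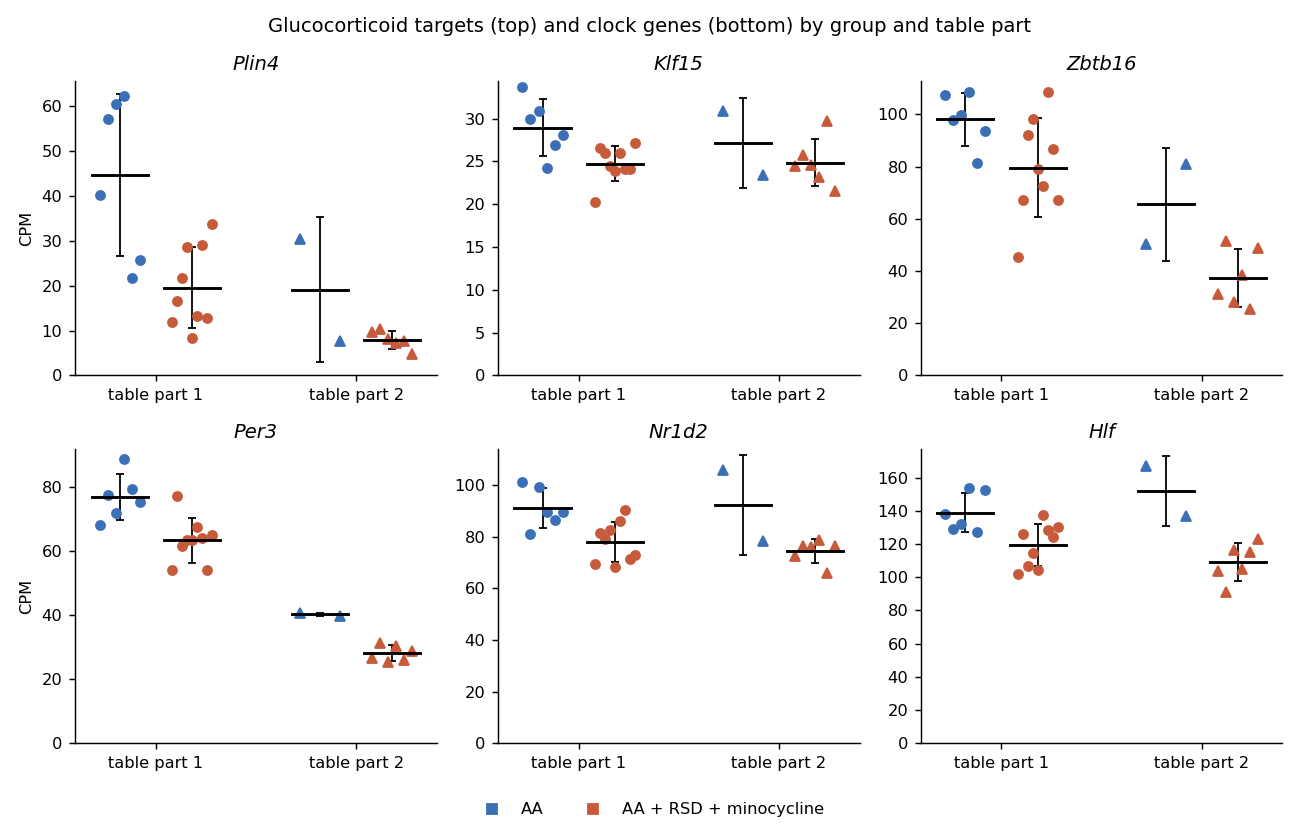
CPM of 3 glucocorticoid targets (Plin4, Klf15, Zbtb16) and 3 clock genes (Per3, Nr1d2, Hlf), by table part and group, 1 point per mouse, with black lines for the mean and bars for the SD (n = 6, 9, 2 and 6 from left to right). Treated means lie below AA means in both table parts for all 6 genes, and for Per3 the table parts lie further apart than the groups.

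Genes of neuronal activity and signalling held no call by either tool. Of 25 immediate early genes, which neurons switch on within minutes of firing, 4 were lower and 0 higher at an unadjusted p under 0.05 (median -0.11), and 5 and 0 with the term (median -0.10). Fosl2, a FOS-related factor, had medians of 56.5 and 45.8 CPM in AA and treated mice (-0.24, SE 0.08, adjusted p = 0.243). Egr3, an early growth response factor, had medians of 81.2 and 67.8 CPM (-0.19, adjusted p = 0.271). In the cortex of the same mice Egr3 was called lower (-0.77, SE 0.15, adjusted p = 0.0220). Without mice 9838 and 5845 it was not called there (-0.77, adjusted p = 0.495), and the difference between the tissues did not pass the adjusted test (adjusted p = 0.623). Of 32 glutamate receptor and scaffold genes, 7 were lower and 0 higher (median -0.10), and 8 and 0 with the term (median -0.07). Grm5, a metabotropic receptor, had medians of 233 and 199 CPM, with 14 of 15 treated mice below the AA median (-0.28, SE 0.10, adjusted p = 0.245). Of 30 potassium channels, 5 were lower and 0 higher (median -0.08), and 6 and 0 with the term (median -0.07), led by Kcnb2 (-0.23) and Kcnh7 (-0.32).

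GABA receptors and interneuron markers went both ways, with 3 of 24 higher and 5 lower, and 4 and 6 with the term. Gabra5, the hippocampal alpha5 receptor subunit, had medians of 150 and 177 CPM (0.27, SE 0.09, adjusted p = 0.218). Reln, the extracellular guide made by interneurons, had medians of 93.0 and 75.5 CPM (-0.30, adjusted p = 0.191). Of 29 monoamine, opioid and adenosine genes, 3 were higher and 4 lower (2 and 3 with the term), among them the enkephalin precursor Penk (0.43) and the alpha-1A adrenergic receptor Adra1a (-0.46). Of 13 neurotrophin genes, 2 were higher and 2 lower (1 and 2 with the term). The insulin-like growth factor receptor Igf1r had medians of 90.6 and 70.2 CPM, with all 15 treated mice below the AA median (-0.41, SE 0.13, adjusted p = 0.191), and Ntrk2, the receptor of BDNF, had medians of 658 and 588 CPM (-0.18).

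Sirtuins, AKT and NAD genes were tested in 25 members, 2 higher and 6 lower at an unadjusted p under 0.05, and 3 and 7 with the term. The kinase Gsk3b had medians of 186 and 167 CPM, with 14 of 15 treated mice below the AA median (-0.19, SE 0.07, adjusted p = 0.288). Of 33 genes taken from the study's own text, 3 were higher and 1 was lower, and 4 and 1 with the term. The deacetylase Sirt2 differed by 0.13 (adjusted p = 0.298) and Sirt1 by -0.20 (adjusted p = 0.298). Genes in that list were chosen by the study with these samples in hand, so their direction is not independent evidence.

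Lists of chromatin and splicing genes had medians below 0, lists of energy and protein turnover had medians above 0, and all of them also differed between the table parts. None of their members was called by either tool. Of 41 histone and chromatin modifier genes, 10 were lower and 0 higher without the term (median -0.16), and 12 lower and 2 higher with it (median -0.11). Kdm5c, a histone demethylase, differed by -0.23 and Kmt2c, a histone methyltransferase, by -0.33. Of 31 splicing regulators and nuclear-retained RNAs, 3 were lower and 0 higher (median -0.17), and 7 and 0 with the term (median -0.08), led by Tra2a (-0.24) and Srsf7 (-0.17). Of 36 nuclear complex I subunits, 10 were higher and 0 lower without the term (median 0.31), and 20 and 0 with it (median 0.17). All 36 had a log2 fold change above 0 in both fits. Ndufa10 had medians of 131 and 146 CPM (0.28, adjusted p = 0.322), and Ndufab1 differed by 0.26.

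Of 32 proteasome subunits, 8 were higher and 0 lower (median 0.27), and 15 and 0 with the term (median 0.14), among them Psmb2 (0.35) and Psma4 (0.33). Of 50 cytosolic ribosomal proteins, 2 were higher and 1 lower without the term (median 0.35), and 20 and 1 with it (median 0.17). Rps2 had medians of 188 and 219 CPM (0.37), while Rpl24, of which at most 0.907 CPM was counted in any library, differed by -0.67. Of 36 genes of the mitochondrial ribosome and its translation factors, 7 were higher and 0 lower (median 0.18), and 8 and 0 with the term (median 0.13), led by Mrps7 (0.28) and Mrpl10 (0.20). Between the table parts the same lists differed by medians of 0.70 for complex I, 0.58 for the proteasome, 0.84 for cytosolic ribosomal proteins, 0.35 for the mitochondrial ribosome, -0.32 for chromatin modifiers and -0.53 for splicing regulators. In table part 1 alone the medians by group were 0.09, 0.07, 0.06, 0.04, -0.06 and -0.07, and in table part 2, with 2 AA mice, they were 0.36, 0.33, 0.41, 0.22, -0.27 and -0.08. In the lower number range the 6 medians were 0.52, 0.38, 0.59, 0.28, -0.26 and -0.26. In the higher number range all 6 lay on the other side of 0, at -0.12, -0.04, -0.22, -0.04, 0.05 and 0.07. Within each range the groups hold unequal shares of the table parts, and these fits have no term for it. Number range and table part therefore cannot be told apart in these medians. The part of the table block in these list medians was not tested beyond the fits given.

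**Figure D5:**
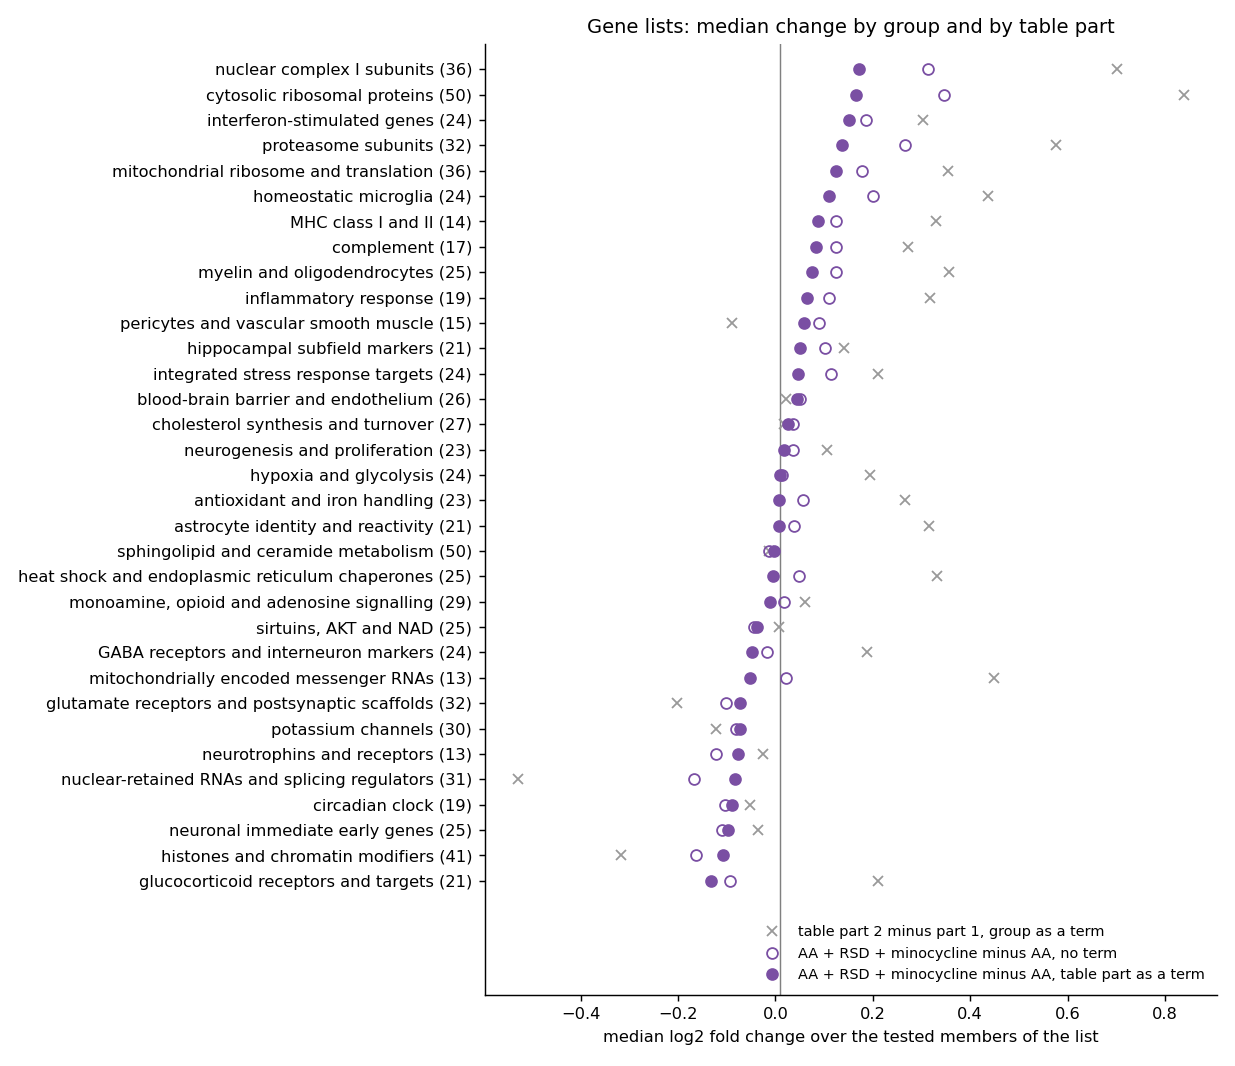
Median log2 fold change over the tested members of each gene list with at least 10 of them, marker lists and genes named by the study left aside (number of members in brackets), for AA + RSD + minocycline minus AA without a term (open circles) and with the table part as a term (filled circles), and for table part 2 minus part 1 (crosses), with a line at the median of all genes in the fit with the term. Of the lists plotted, complex I and cytosolic ribosomal proteins lie furthest right by group and by table part, while glucocorticoid targets lie left by group and right by table part.

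Immune and glial lists held no call by either tool, and all of them had medians above 0 in both fits. Besides the microglia and interferon lists, medians without the term were 0.13 for complement, 0.12 for MHC and 0.11 for inflammatory response genes. They were 0.12 for myelin and 0.04 for astrocyte genes. With the term these medians were 0.08, 0.09, 0.06, 0.07 and 0.01. Of 24 homeostatic microglia genes, 2 were higher and 0 lower without the term (median 0.20), and 4 and 0 with it (median 0.11). Spi1, the transcription factor PU.1 that maintains microglia, had medians of 2.32 CPM in AA and 2.90 CPM in treated mice, and all 15 treated mice lay above the AA median (0.40, SE 0.12, adjusted p = 0.180). Trem2, a microglial lipid receptor, differed by 0.28. Of 24 interferon-stimulated genes, 5 were higher and 0 lower (median 0.19), and 3 and 0 with the term (median 0.15), with Gbp3, a guanylate-binding protein, at 0.40 (adjusted p = 0.167) and Ifitm3 at 0.47. In the higher number range the medians of the microglia and interferon lists were -0.05 and -0.03, and in the lower one they were 0.32 and 0.22. Between the table parts these 2 lists differed by medians of 0.44 and 0.30. By group their medians were 0.08 and 0.24 in table part 1 and 0.20 and 0.07 in table part 2. In bulk tissue, a change in the number of cells of a type and a change in RNA per cell cannot be told apart.

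Complement genes (17 tested) held 0 below an unadjusted p of 0.05, with C1qc at 0.29 and Itgam at 0.27 lowest in p, and 1 higher with the term. The 14 MHC genes held 1 higher (H2-Q4, 0.33), or 2 with the term, and H2-DMa stood at 0.16. The 19 inflammatory response genes held 0 in both fits, with Nfkb1 at -0.17 and Il1a at 0.28. Of 21 astrocyte genes, 1 was higher and 1 lower (1 and 4 with the term), the acute-phase inhibitor Serpina3n (0.27) and the glutamate transporter Slc1a2 (-0.13). Of 25 myelin genes, 1 was higher, the oligodendrocyte membrane protein Opalin (medians of 21.8 and 28.1 CPM, 0.53, adjusted p = 0.2498), and Car2 followed at 0.27. With the term 2 myelin genes were higher and 0 lower.

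Of 26 endothelial and barrier genes, 2 were higher and 1 lower, and 3 and 1 with the term. Emcn, a sialomucin of capillary and venous endothelium, had medians of 4.42 and 6.14 CPM (0.55, SE 0.14, adjusted p = 0.091), and the amino acid transporter Slc38a5 had medians of 1.84 and 2.55 CPM (0.49, SE 0.12, adjusted p = 0.091). DESeq2 called both higher (0.56 and 0.50, adjusted p = 0.0354 and 0.0382). Smooth muscle genes followed among 15 mural members, with Acta2 at 0.46 and Tagln at 0.55, 2 higher in all in both fits. Of 23 neurogenesis and proliferation genes, 3 were higher and 1 lower in both fits. Mki67 and Top2a, which mark dividing cells, had medians of 0.484 and 0.866 CPM and of 0.482 and 0.893 CPM, with all 15 treated mice above the AA median of each (0.61 and 0.52, adjusted p = 0.190 and 0.333). Within table part 2 alone Top2a was lower in treated mice. Of 21 subfield markers, 2 were higher and 1 lower (1 and 1 with the term), with Neurod6 of pyramidal neurons at 0.27 and Pdzd2 at -0.37.

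Metabolic and stress lists had medians of -0.01 to 0.11 without the term and of -0.0054 to 0.05 with it. Of 50 sphingolipid genes, 0 were higher and 4 lower (2 and 4 with the term), with Kdsr at -0.10 and Sgpp2 at -0.28. Of 27 cholesterol genes, 3 were higher and 1 lower in both fits, with the synthesis enzyme Mvd at 0.23 and the exporter Abca1 at -0.36. Of 24 stress response targets, 1 was higher (Pycr1, 0.28; 2 with the term), and Nupr1 stood at 0.33. The 25 chaperones held 0, or 1 higher and 3 lower with the term, with the cold-inducible RNA-binding proteins Rbm3 and Cirbp lowest in p (0.23 and 0.15). Of 24 hypoxia and glycolysis genes, 2 were higher and 1 lower (2 and 2 with the term), with Aldoa at 0.23 and Pdk1 at -0.10. Of 23 antioxidant and iron genes, 1 was lower (Gclm, -0.18), or 1 higher and 2 lower with the term, and Fth1 stood at 0.33.

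Markers of other tissues and cells were measured as a check of dissection. Choroid plexus markers summed to between 38.3 and 4523 CPM in AA mice and between 33.5 and 10364 CPM in treated mice (medians 207 and 89.96), none of 14 was below an unadjusted p of 0.05, and Prlr and Otx2 differed by -0.60 and -0.47. Of 11 thalamus markers 1 was lower (Slc17a6, -0.61), with Ramp3 at 0.33, and the summed range was 138 to 207 CPM in AA and 122 to 220 CPM in treated mice. Cortical layer markers, at 511 to 613 and 482 to 583 CPM, held 1 higher (Lmo4, 0.21) and 1 lower (Tshz2, -0.71) of 13. Striatal markers (189 to 250 and 171 to 247 CPM, Drd2 at 0.24, Pde10a at -0.26) and meningeal markers (132 to 218 and 121 to 273 CPM, Ogn at -0.27, Serpinf1 at 0.16) held 0 of 12 and 0 of 15. Hippocampus markers held 1 higher of 10 (Neurod6), and Zbtb20 stood at -0.25.

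Blood markers varied with single mice. Of 13 erythroid markers 5 were tested, none below an unadjusted p of 0.05. Slc4a1, the red cell anion exchanger, stood at 6.50 CPM in AA mouse 5844 and at 0.126 to 0.640 CPM in the other 7 AA mice. Among treated mice it stood at 4.51 CPM in mouse 5853 and at 0.105 to 1.24 CPM in the other 14 (-0.96, adjusted p = 0.510). Of 19 neutrophil and lymphocyte markers 3 were tested. Ighm, the heavy chain of IgM, ranged from 5.35 to 20.8 CPM in AA mice and from 11.4 to 29.2 CPM in treated mice, all 15 of them above the AA median of 10.3 CPM (0.68, SE 0.20, adjusted p = 0.169). The marker list summed to 6.84 to 22.4 CPM in AA and to 14.4 to 32.4 CPM in treated mice. Igkc, the kappa light chain, differed by 0.84 with an SE of 0.75.

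Outside the lists, several genes came near the threshold. They were chosen after their values were seen, from those of lowest p with the table part as a term, and edgeR called none of them in either fit. Btbd8 (-0.20), Tmem150a (0.34), Abhd14b (0.33) and Ddx39 (0.27) were also among those of lowest p with the term. Without it they differed by -0.16, 0.21, 0.15 and 0.21 (edgeR adjusted p = 0.322, 0.685, 0.797 and 0.333). In the lower number range Tmem150a and Abhd14b both stood at -0.05, and within table part 1 of that range at 0.43 and 0.36. Between the table parts these 2 genes differed by -1.28 and -1.35. DESeq2 called Fut9, Map2k6, Xdh and Vps37a lower (adjusted p of 0.0221 to 0.0351) and Lmo2, Ppp1r1a, Syndig1 and Mlx higher (adjusted p of 0.0299 to 0.0459). Fut9, which makes the Lewis X carbohydrate on neural cells, ranged from 49.8 to 109 CPM in AA mice (median 61.4) and from 25.8 to 61.8 CPM in treated mice (median 40.03), with 14 of 15 below the AA median (-0.68, SE 0.14, adjusted p = 0.0505). Map2k6, a kinase that activates p38, ranged from 10.4 to 13.8 CPM and from 7.99 to 11.1 CPM (-0.32, SE 0.07, adjusted p = 0.0655). Xdh, xanthine dehydrogenase, had medians of 15.4 and 10.4 CPM (-0.53, adjusted p = 0.0726). Pnpla7, a lysophospholipase, had medians of 30.7 and 24.3 CPM (-0.35, adjusted p = 0.121), and Vps37a, a subunit of the ESCRT-I sorting complex, differed by -0.27 (adjusted p = 0.0676). All 15 treated mice lay below the AA median of Map2k6, Xdh and Pnpla7.

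Of the genes chosen for a low p with the term, some were higher than the AA median in all 15 treated mice. Such a pattern follows in part from the choice, and its share over all genes is not given. Lmo2, an endothelial and blood cell regulator, had medians of 12.03 and 15.03 CPM (0.37, SE 0.09, adjusted p = 0.0676). Ppp1r1a, an inhibitor of protein phosphatase 1, ranged from 46.1 to 85.2 CPM in AA and from 68.7 to 149 CPM in treated mice (0.54, SE 0.14, adjusted p = 0.0983). By group it was 0.75 in the lower and 0.17 in the higher number range, and within table part 1 it was 0.57 and 0.17. Ppp1r1a differed by 0.45 between the table parts. Of the exonic bases of Ppp1r1a, 60.4% overlap the opposite-strand gene Pde1b. Such overlaps cover 51.9% of Mlx, 36.8% of Ddx39, 31.8% of Syndig1 and 30.7% of Vps37a. Syndig1, which promotes excitatory synapses, had medians of 25.3 and 33.4 CPM (0.37, adjusted p = 0.100). Tmeff2 (0.22), Mlx (0.22) and Ifngr2, a subunit of the interferon gamma receptor (0.22), were likewise above the AA median in all 15. With the table part as a term and without mice 5844 and 5853, also added once the values were known, Per3 (-0.36), Pnpla7 (-0.36) and Ube2v2 (-0.31), a ubiquitin-conjugating enzyme variant, were called lower (adjusted p = 0.0412 for each).

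Whether the comparison differed in the other tissue or genotype was tested directly. Between hippocampus and cortex of the same 23 mice, with mouse as a block, 0 of 18817 genes passed in edgeR (1103 at an unadjusted p under 0.05). Between AA and SS hippocampus, where the SS comparison held 5 untreated and 12 treated mice of the same number ranges, 0 of 19487 genes passed in edgeR (596 at an unadjusted p under 0.05), and DESeq2 called 1. The SS comparison alone called 0 of 18993 genes in edgeR (1571 at an unadjusted p under 0.05). Plin4 differed by -1.40 (SE 0.35, adjusted p = 0.0847) in the cortex of the same mice and by 0.01 (SE 0.67, adjusted p = 0.993) in SS hippocampus, and the difference between AA and SS had an unadjusted p of 0.0734. Fkbp5 differed by -0.45 (SE 0.11, adjusted p = 0.0881) in the cortex. Per3 differed by -0.28 in the cortex and by -0.43 in SS hippocampus (adjusted p = 0.934 and 0.606). In SS hippocampus all 5 untreated mice are in table part 1 and 4 of the 12 treated mice are in table part 2, where no untreated SS mouse was measured, and what this adds to the SS values was not tested. Tef differed by -0.07 in the cortex and by -0.23 in SS hippocampus (adjusted p = 0.961 and 0.150). mt-Atp8 differed by -4.89 in the cortex (adjusted p = 0.00785) and by -4.55 in SS hippocampus (adjusted p = 0.0511).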

How the data were processed

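The authors prepared directional polyA libraries, sequenced single 85-base reads and aligned them to GRCm39 with STAR, and they deposited, per tissue, whole-number counts of reads per GENCODE gene without normalization. The GENCODE release, the STAR version and the strand setting are not given in the sources used here. Genes that overlap on opposite strands are therefore uncertain, as are near-identical copies. The 4 summary lines that name no gene stayed out of library sizes and tests. They held unmapped reads (4.99% to 41.9% of all reads), reads at several places (2.44% to 9.28%), outside genes (4.22% to 9.97%) and on several genes (0.887% to 1.48%). Left aside were 3 columns for which the labels give no usable library.

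Tests were run with edgeR 4.0.16 under R 4.3.3 (filterByExpr by group with a minimum count of 10 and a minimum total of 15, TMM, glmQLFit and glmQLFTest). The fit held both groups and no covariate. CPM were scaled by TMM, and log2 CPM used a prior count of 2. DESeq2 1.42.0 was an alternative, as were RLE factors, no filter, other models, terms and sets of mice, and leaving out each library. Differences between tissues used mouse as a block. Library measures were compared by exact permutation tests of the means, two-sided. Replicate mice set the precision. The standard error was under 0.25 for 84.0% of genes. The tests were checked on simulated counts, drawn without differences between table parts, in which 200 genes were changed. Without a term edgeR recovered 93% of them at a 2-fold change, 72% at 1.5-fold and 16% at 1.25-fold. With the table part as a term it recovered 91%, 73.5% and 11.5%. The spread of the simulated counts was estimated from the real libraries without that term. The rates with the term therefore do not show what it recovers in the real counts. Of the edgeR calls in these runs, 2.15% to 8% were false. Of the DESeq2 calls at a 2-fold change, 10.96% were false.

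Positions and gene types came from GENCODE M39, which matched 54749 of 55416 genes, and copies were found with blastn and by exact search of 85-base windows. Genes were named by a rule: among called genes whose log2 CPM averaged 1 or more, without pseudogenes and unnamed genes, the 10 of largest change and 5 of lowest p per direction, and from each of 42 lists up to 4 called members, or the 2 of lowest p. Some genes that the rule names are not reported here. The compared mice, the lists and the rule were chosen with earlier results of these data known.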

Additional observations from a re-analysis of the deposited data

Results flagged for a closer look

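Among the 8 AA libraries, 9 of 85 values tested (named genes and library measures, genes as log2 of CPM plus 1) had a single mouse far from the other 7 by Dixon's criterion, which chance alone gives in about 5% of groups. AA mouse 9838 had the highest share of unmapped reads (41.9% against 12.5% to 26.2%), the lowest share of reads on several genes (0.887% against 1.13% to 1.21%), the highest Gsk3b (213 CPM against 175 to 190 CPM) and the lowest Serpina3n (41.5 CPM against 56.41 to 68.95 CPM). AA mouse 9836 had the highest Gclm (53.3 CPM against 38.99 to 44.12 CPM) and Sirt2 (153 CPM against 125 to 135 CPM) and the lowest Nfkb1 (13.9 CPM against 20.9 to 27.2 CPM). AA mouse 5844 had the highest Slc4a1 (6.50 CPM against 0.126 to 0.640 CPM) and the lowest Srsf7 (84.4 CPM against 96.4 to 105 CPM). Mice 9836 and 5844 are the 2 AA mice of table part 2.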

How the results depend on the processing

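AA and treated mice are different animals and were compared without pairing. The labels give no replicate numbers, and those used here follow accession order. Against the 25 genes called, RLE factors gave 25 and DESeq2 66 (10 higher, 56 lower, 2 of them among the 25). No filter on low counts gave 571 and a model of all AA hippocampus groups 715. Leaving out mice 5844 and 5853 gave 38, and keeping the identical library gave 66. Pseudogenes made up 523 of the 571, 633 of the 715, 30 of the 38 and 56 of the last 66, and each of these sets held all 25. The count was 0 with mice of every number, with the table part, the number range or the share of reads outside genes as a term, and within either table part or either number range (632 to 4149 genes at an unadjusted p under 0.05 in these fits). Leaving out 1 library at a time gave 0 to 102, above 0 in 10 of 23 fits, with 0 without mouse 9838, 0 without mouse 5845 and 0 in 11 fits that each left out a treated mouse. Of settings chosen after seeing the data, leaving out mice 9838 and 5845 gave 0, also with the table part as a term or within table part 1. The table part as a term without mice 5844 and 5853 gave 3, table part 1 within the lower number range gave 1 (Alox12b, chosen after its value was seen) and within the higher range gave 0. Elsewhere, the difference between tissues gave 10 without a filter, the difference between genotypes 1 by DESeq2, and the number range 237 without mice 5844 and 5853. Without mice 9838 and 5845 the differences in unmapped reads and reads on several genes were -3.36 and 0.0709 points, no longer past the threshold, and that in reads outside genes was -0.176 (-0.449 without mice 5844 and 5853, against 0.0665). Why these counts and differences moved with the setting was not tested.

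Of 3438 refits of the 80 named genes, 36 turned the sign, in 21 genes. In the higher number range, C1qc was -0.15, Car2 -0.14, Drd2 -0.17, Fth1 -0.17, Ifitm3 -0.027, Itgam -0.020, Nfkb1 0.044, Opalin -0.019, Pde10a 0.079 and Ramp3 -0.026. In the lower number range, Igkc was -0.69, Otx2 2.57 and Prlr 1.37. In table part 2, Igkc was -1.58, Ogn 0.073, Otx2 1.47, Prlr 0.94, Serpinf1 -0.037 and Top2a -0.24. With mice of every number, C1qc was -0.069, Drd2 -0.20 and Serpinf1 -0.044. In table part 1 without mice 9838 and 5845, Il1a was -0.0040, mt-Nd4l 0.042, Serpina3n -0.0037 and Slc4a1 1.47. In table part 1 within the lower range, Otx2 was 2.40, Prlr 1.26, Serpina3n -0.018 and Slc4a1 2.14, and within the higher range Drd2 was -0.20 and Rbm3 -0.070. With 1 library left out, the log2 fold change of Igkc ranged from -0.092 to 1.55, the log2 fold change of Otx2 from -1.26 to 0.11 and the log2 fold change of Slc4a1 from -1.81 to 0.82. Of 840 counts of called list members, 29 moved, in 6 of 42 lists.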
